A study of Homo sapiens with 36 samples.

Results

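The genes described here are 10 mRNAs of the actin cytoskeleton, of 26485 gene symbols counted in the series: TAGLN2, FSCN1, ACTB, ACTG1, CFL1, PFN1, TMSB4X, TMSB10, MYL6 and MYL9. They were found by symbol in all 36 libraries, and all 10 passed the filter on low counts in every fit. The set was chosen from measured values: TAGLN2 was picked out because it was high in the heavy polysome fraction of control cells, and for FSCN1 the comparison that picked it out is not recorded. The contrast of fractions in control cells is therefore given as a description for every gene, FSCN1 is described without a test throughout, and counts of genes passing a test run over the other 9 genes. TAGLN2 is likewise a description where the low or high fraction of a line is set against that of control, as those control libraries chose it. The counts of 9 there, and in the interactions within these fractions, still include TAGLN2, whose part in them is not a result. With all libraries and the filter on low counts TAGLN2 passed in none of these comparisons. All members were listed with earlier results of these data known, so no test here is fully independent of the choice. The cells were MDA-MB-231, an established line from a human breast cancer that lacks estrogen and progesterone receptors and has a mesenchymal character; the labels give its source as a xenograft cell line.

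The 4 lines each carried a CRISPR interference construct and an overexpression construct. Control cells had CRISPR interference against eGFP and a control overexpression construct. The UAU line had CRISPR interference against eGFP and overexpression of the isoleucine tRNA with the UAU anticodon. In the GAUi line, CRISPR interference was aimed at the isoleucine tRNA with the GAU anticodon, beside the control overexpression construct. The isoswitch line combined the interference against the GAU tRNA with the overexpression of the UAU tRNA. All cells received 100 ug/mL cycloheximide for 5 minutes, which holds ribosomes on mRNA, and each line gave total RNA, a low fraction, which took the monosomes together with the first peak of polysomes, and a high fraction with more than 2 polysomes. Each of the 12 groups had 3 replicates, lettered A, B and C, sequenced from the 3′ ends of polyadenylated RNA. Each construct pair is represented by 1 line, so that line and constructs cannot be told apart, and whether a line was a pool or a clone is not given in the sources used here. The tRNAs were not measured, and no library here checks the knockdown or the overexpression.

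Actin filaments grow by addition of ATP-actin monomers and shrink by loss of older subunits, and non-muscle cells build them from beta-actin and gamma-actin, the products of ACTB and ACTG1. Cofilin (CFL1) severs filaments, profilin (PFN1) hands monomers to growing ends, and the beta-thymosins (TMSB4X and TMSB10) are small peptides that hold monomers in reserve. Fascin (FSCN1) bundles filaments in the protrusions of invasive cells, transgelin 2 (TAGLN2) is a calponin family protein that binds filaments, and MYL6 and MYL9 are the essential and regulatory light chains of myosin II. Many of these genes are targets of serum response factor (SRF), which binds the CArG box and is held in check by monomeric actin through its MRTF cofactors.

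The unit of level is CPM, the count of a gene over the library total after TMM scaling, expressed for the same large total in every library. Levels are compared between libraries for the same gene only. Totals ran from 5192464 to 8974001 counts per library. A few libraries stood apart from their replicates, by the chi-square of their counts over genes per degree of freedom. In the low fraction of control, replicate B gave 13.7 and 15.8 against the other replicates, which gave 2.88 against each other. Pairs of GAUi total RNA gave 8.53 to 23.8, while pairs of total RNA in the other lines gave 1.79 to 3.73. UAU high replicate C gave 5.35 and 9.01 against the other replicates, which gave 2.48. UAU low replicate A gave 6.94 and 9.29, against 3.47 for the other pair. Where leaving out one of these libraries altered the call of a member, the value without it stands beside the result. Leaving out a library also moved the number of all genes called, with ranges given at the end. Member counts without a library were not set against that number. VIM, CD44, AXL, EGFR and CAV1, expressed by this line, were counted in 36 of 36 libraries. The receptor genes ESR1 and PGR reached at most 0.355 and 0.858 CPM, and the epithelial cadherin gene CDH1 0.369 CPM, while ERBB2 and EPCAM were counted in 36 of 36 libraries, at up to 20.2 and 27.5 CPM. Of the smooth muscle markers, DES was at 0 in all 36 libraries and ACTA2 reached 1.59 CPM, but TAGLN and MYH11 were counted in 36 of 36 libraries, at up to 22.6 and 12.9 CPM. Among endothelial markers CDH5 was at 0 in all libraries and PECAM1 was counted in 36, at up to 7.91 CPM. CD3E, a T cell marker, was at 0 in all libraries, while the leukocyte genes PTPRC and LYZ were counted in 20 and 23, at up to 0.658 and 0.808 CPM. Summed over 6 smooth muscle markers, total RNA had 16.9 to 18.5 CPM in control, 21.7 to 24.9 in UAU, 21.1 to 23.6 in GAUi and 16.7 to 17.8 in isoswitch. The part of these transcripts in the results below was not tested.

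ACTG1 is shown by its promoter because it was the member that rose most often in cells with interference against the GAU tRNA, and because the letters of a CArG box lie in it. ACTG1 lies on chromosome 17 from 81509971 to 81512799 (GRCh38.p14). The 250 bases upstream of its RefSeq start are chr17:81512800-81513049 on the minus strand, written 5′ to 3′ with the CArG box in capitals:

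ACTG1: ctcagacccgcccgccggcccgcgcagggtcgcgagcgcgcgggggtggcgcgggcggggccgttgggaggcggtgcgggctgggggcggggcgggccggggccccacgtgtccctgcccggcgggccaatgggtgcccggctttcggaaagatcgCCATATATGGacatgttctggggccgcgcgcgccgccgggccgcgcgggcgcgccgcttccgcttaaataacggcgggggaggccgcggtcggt

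The CArG box, searched by its consensus, which reads the same on both strands and overlaps no other motif searched here, was found at 81512884 to 81512893. The same search found a box in 407 of 35116 RefSeq promoter windows (1.16%), and in 149 of 13512 windows of genes tested in the control fractions (1.1%). Of the 10 genes, 7 had windows in the table, 9 windows in all, and 1 of the 7 held a box. FSCN1, ACTB and MYL9 had none in the table. The match describes letters in a window, and binding of SRF was not measured.

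ACTB (chromosome 7, 5527148 to 5530601) and FSCN1 (chromosome 7, 5592816 to 5606655) lie 62214 bases apart. The other genes are spread over the genome: TAGLN2 on chromosome 1 (159918111 to 159925507), TMSB10 on 2 (84905656 to 84906671), CFL1 on 11 (65854673 to 65858180), MYL6 on 12 (56158359 to 56161579), PFN1 on 17 (4945652 to 4948530), MYL9 on 20 (36541519 to 36551447) and TMSB4X on X (12975110 to 12977223). Actins and their regulators have processed pseudogenes that can share reads with them. Among symbols in the count files named as pseudogenes of these genes, the largest share was for ACTG1, at 0.106% of its counts. MYL9 overlaps DLGAP4-AS1, which had 30 counts over all libraries beside 27797 for MYL9. The strand setting of the counting is not given in the sources used here, so reads of such overlapping genes cannot be told apart.

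The first question was how these mRNAs were spread over light and heavy polysomes. In all 4 lines, 8 of the 10 mRNAs had higher levels in the high than in the low fraction, and the thymosins TMSB4X and TMSB10 had lower levels there. A level in a fraction is relative to all other mRNA of that fraction, and in bulk RNA fewer cells of a type and less RNA per cell cannot be told apart.

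TAGLN2 had 516, 701 and 518 CPM in the low fraction of control (replicates A, B and C) and 3426, 3019 and 3792 CPM in the high fraction. Total RNA lay between, at 1537, 1671 and 1449 CPM. The fractions did not overlap, and the fitted high-over-low difference in control was 2.49 on the log2 scale (SE 0.13), the value that chose the gene. Without control low replicate B it was 2.64. In the other lines the difference was 2.31 in UAU (SE 0.15, adjusted p = 4.76e-13), 2.27 in GAUi (SE 0.20, adjusted p = 1.56e-08) and 2.01 in isoswitch (SE 0.096, adjusted p = 1.76e-16), by the edgeR quasi-likelihood test. TAGLN2 was thus high in heavy polysomes also in the 3 lines other than control. As the genes were listed with earlier results of these data known, this is not independent support.

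FSCN1 was a less abundant mRNA, with 21.2, 17.3 and 18.2 CPM in the low fraction of control and 46.6, 51.8 and 36.3 CPM in the high fraction. Its fitted difference was 1.19 in control, 0.63 in UAU, 0.94 in GAUi and 1.76 in isoswitch, as a description without a test. The isoswitch libraries reached 77.4, 52.9 and 51.8 CPM in the high fraction, while UAU had 21.96, 18.6 and 30.2 CPM. The UAU and isoswitch high libraries of FSCN1 did not overlap, and the UAU libraries lay below all 3 control libraries. These values may be those that picked out FSCN1, and how many genes have such gaps was not counted, so they are only described.

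**Figure D1:**
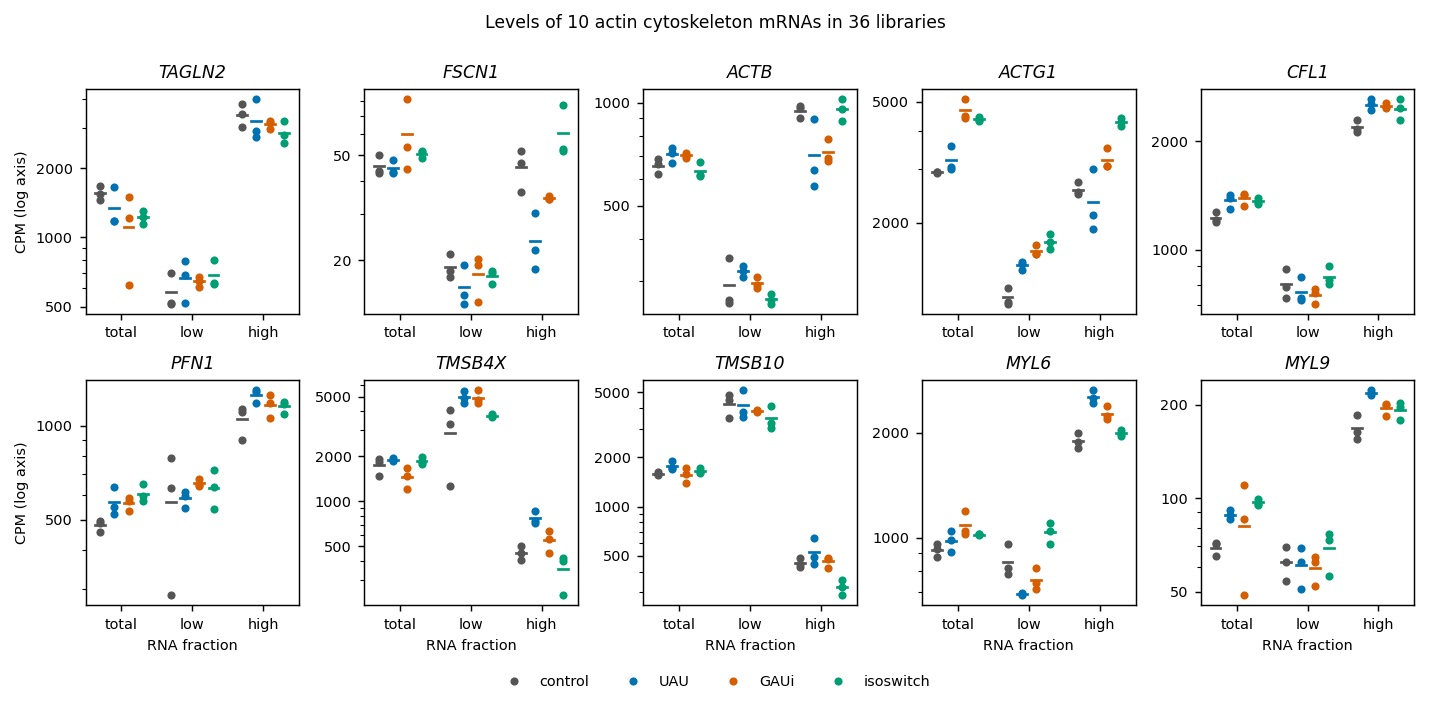
Levels of the 10 mRNAs in CPM (log axis) by RNA fraction, with a point for each library and a bar for the mean of 3 libraries in each line. TMSB4X and TMSB10 were highest in the low fraction, and the other mRNAs were highest on average in the high fraction, except ACTG1 in all 4 lines, FSCN1 in control, UAU and GAUi, and ACTB in UAU, which were highest in total RNA.

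Both actin mRNAs had higher levels in the high fraction. ACTB had 351, 260 and 265 CPM in the low fraction of control against 976, 964 and 904 CPM in the high fraction, a fitted difference of 1.63. The difference was 1.16 in UAU (SE 0.12), 1.27 in GAUi (SE 0.090) and 1.81 in isoswitch (SE 0.079). ACTG1 had 1226, 1086 and 1102 CPM in the low and 2484, 2719 and 2526 CPM in the high fraction of control, a fitted difference of 1.11. It differed by 0.73 in UAU (SE 0.12), 0.99 in GAUi (SE 0.090) and 1.26 in isoswitch (SE 0.078). For both genes the value was lowest in UAU and highest in isoswitch, and low and high libraries did not overlap in any line.

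Cofilin and profilin, which turn filaments over, also had higher levels in the high fraction. CFL1 had 732 to 881 CPM in the low and 2128 to 2295 CPM in the high fraction of control. Its fitted difference was 1.39 in control, 1.76 in UAU (SE 0.090), 1.74 in GAUi (SE 0.084) and 1.51 in isoswitch (SE 0.079). PFN1 had 786, 286 and 630 CPM in the low fraction of control, where replicate B was far below the others, and 1136, 1104 and 902 CPM in the high fraction. The difference for PFN1 in control was 0.82, and 0.48 without control low replicate B. In UAU, GAUi and isoswitch it was 1.14, 0.83 and 0.83.

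The thymosins went the other way. TMSB4X had 3317, 1277 and 4056 CPM in the low fraction of control and 502, 455 and 403 CPM in the high fraction, so that even the stray replicate B lay above the high libraries. The fitted difference was -2.73 in control, and -3.10 without that replicate. It was -2.64 in UAU, -3.17 in GAUi and -3.45 in isoswitch (SE 0.098 to 0.14). TMSB10 had 4457, 3457 and 4790 CPM in the low and 430, 482 and 448 CPM in the high fraction of control, a difference of -3.29, and -2.94, -3.05 and -3.47 in UAU, GAUi and isoswitch. Among 12266 genes tested in control, ordered from the lowest difference, TMSB10 lay at percentile 0.872 and TMSB4X at percentile 1.88.

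Both myosin light chain mRNAs had higher levels in the high fraction. MYL6 had 784, 957 and 816 CPM in the low and 1802, 1877 and 1999 CPM in the high fraction of control, a difference of 1.08. In UAU its difference was 1.92 (SE 0.088), in GAUi 1.58 (SE 0.093) and in isoswitch 0.90 (SE 0.076). MYL9 had 54.2 to 69.8 CPM in the low and 155 to 186 CPM in the high fraction of control, a difference of 1.37, with 1.89, 1.70 and 1.44 in the other lines. MYL6 thus spread more widely over the lines than MYL9 did.

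**Figure D2:**
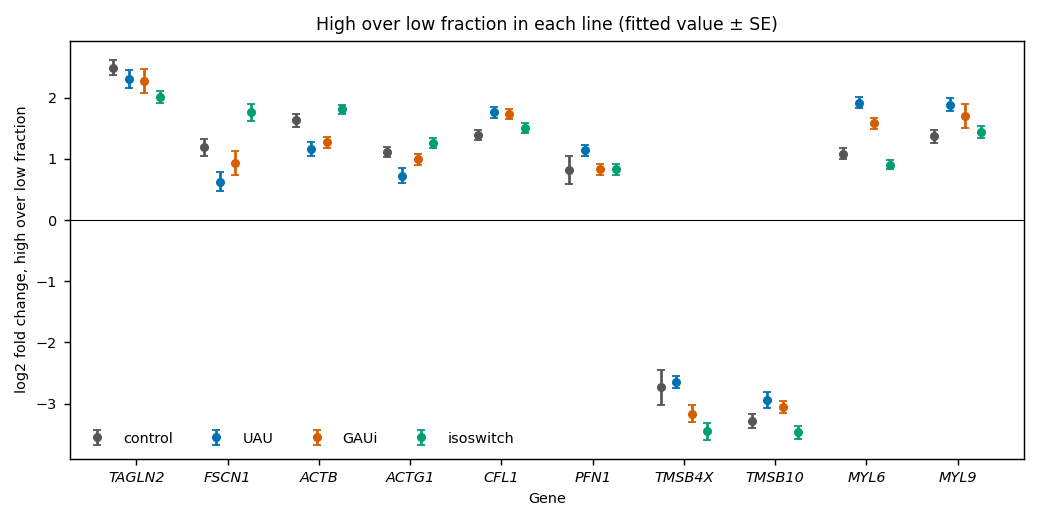
Fitted log2 fold change of the high over the low fraction in each line, with its SE, for the 10 genes; positive values mean higher in heavy polysomes. The thymosins lie between -2.64 and -3.47, and the other genes between 0.63 and 2.49.

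All 9 counted genes passed the test in UAU, in GAUi and in isoswitch, 7 of them higher in the high fraction and 2, the thymosins, lower (adjusted p under 0.05, edgeR quasi-likelihood test with Benjamini-Hochberg adjustment). Fractions differed for most genes: of all genes tested, 33.4% were called higher and 33.6% lower in UAU, 32.1% and 32.7% in GAUi, and 35.2% and 35.3% in isoswitch. The median difference over the 9 genes was 1.16, 1.27 and 1.26 in these lines, and over all genes -0.02, -0.03 and -0.02.

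Other genes of the pathway, 78 tested non-members from 12 lists of actin regulators, were also more often higher than lower in the high fraction, with medians of 0.29, 0.43 and 0.46 in UAU, GAUi and isoswitch. In UAU 40 were higher and 19 lower, in GAUi 41 and 22, and in isoswitch 45 and 17. The Arp2/3 subunit gene ARPC1A was far below, with differences of -3.04, -2.73 and -2.43 in UAU, GAUi and isoswitch. BRK1, a small subunit of the WAVE complex, differed by -1.93, -2.06 and -2.58. Among those above were the myosin light chain gene MYL12B (1.86 in UAU), the GTPase genes RHOC (1.83 in UAU, 1.86 in GAUi) and RHOA (1.80 in GAUi), the tropomyosin gene TPM3 (1.77 in isoswitch) and LASP1 (1.62 in isoswitch). By list, the calponin family genes outside the members were higher in the high fraction in 3 of 3 cases in each of these lines. Bundling and crosslinking genes outside the members gave 1 higher and 3 lower of 8 in UAU, 2 and 5 in GAUi, and 2 and 3 in isoswitch. FSCN1, of the same list but not in this count, had higher mean levels in the high fraction in all 4 lines. Membrane and adhesion linkers gave 2 higher and 3 lower of 6 in UAU, 1 and 4 in GAUi, and 2 and 1 in isoswitch. Beside shares of 32.1% to 35.3% of all genes in each direction, counts over so few genes are only described.

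The next question was whether the tRNA changes altered the level of these mRNAs. The 3 lines were each compared with the same control libraries, so their values share that control. In total RNA, ACTG1 rose in both lines with interference against the GAU tRNA. Control had 2918, 2934 and 2948 CPM, and UAU had 3016, 3572 and 3048 CPM. GAUi had 5119.9, 4511 and 4442 CPM, and isoswitch 4452, 4341 and 4357 CPM. Every GAUi and isoswitch library lay above every control and UAU library. The log2 fold change over control was 0.67 in GAUi (SE 0.075, adjusted p = 1.55e-05) and 0.60 in isoswitch (SE 0.075, adjusted p = 7.29e-05), and 0.16 in UAU, which did not pass (SE 0.075, adjusted p = 0.364, edgeR).

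ACTB, the other cytoplasmic actin, did not pass in total RNA. It had 619, 684 and 661 CPM in control, 698, 691 and 714 CPM in GAUi and 616, 671 and 611 CPM in isoswitch. The log2 fold change was 0.09 in GAUi (SE 0.072) and -0.03 in isoswitch (SE 0.072), the latter turning to 0.0021 without control replicate B. TAGLN2 in total RNA had 1499.6, 624 and 1211 CPM in GAUi, where replicate B was low, and 1149, 1306 and 1225 CPM in isoswitch, below all 3 control libraries. Its log2 fold change was -0.49 in GAUi (SE 0.19, adjusted p = 0.116) and -0.32 in isoswitch (SE 0.19, adjusted p = 0.454). Without GAUi replicate A the former was -0.77 (adjusted p = 0.00103, edgeR). Without the low replicate B it was -0.21 (adjusted p = 0.256), and without replicate C -0.55 (adjusted p = 0.127, edgeR). The isoswitch value passed when only control and isoswitch entered the fit (adjusted p = 6.95e-07) and without the filter on low counts (adjusted p = 0.00369), and the GAUi value passed without that filter (adjusted p = 3.54e-07).

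PFN1 passed in isoswitch, from 488, 495 and 455 CPM in control to 595, 648 and 572 CPM, with no overlap (log2 fold change 0.35, SE 0.084, adjusted p = 0.0207). The call was lost without control replicate A, B or C or isoswitch replicate A or B, with adjusted p from 0.0627 to 0.141 (edgeR). FSCN1 had 43.4, 43.0 and 50.1 CPM in control and 81.5, 44.4 and 53.6 CPM in GAUi, where 1 library stood above the rest. MYL9 in GAUi was as scattered, at 111, 48.7 and 85.5 CPM against 65.2 to 71.6 CPM in control, and in isoswitch it had 96.0, 95.4 and 99.8 CPM, above all control libraries without passing (log2 fold change 0.50, SE 0.17, adjusted p = 0.130, edgeR). This value passed when only control and isoswitch entered the fit (adjusted p = 8.53e-08) and without the filter on low counts (adjusted p = 0.000260).

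In total RNA, 0 of the 9 counted genes passed in UAU (edgeR quasi-likelihood test; 5 at an unadjusted p under 0.05, 0 by DESeq2), where 0.348% of all genes were called higher and 0.566% lower. In GAUi 1 of 9 passed, ACTG1, beside 4.38% of all genes called higher and 5.72% lower. In isoswitch 2 of 9 passed, both higher, beside 1.29% of all genes higher and 2.76% lower. Without GAUi replicate A, B or C the count in GAUi was 3, 4 and 3, and without control replicate C it was 2. Beside ACTG1 and TAGLN2, PFN1 passed without replicate A (0.27, adjusted p = 0.0156). Without replicate B, CFL1 (0.20, adjusted p = 0.0394), MYL6 (0.26, adjusted p = 0.0235) and MYL9 (0.49, adjusted p = 0.00283) passed. MYL9 was -0.06 without replicate A (adjusted p = 0.792) and 0.20 without replicate C (adjusted p = 0.549, edgeR). Without replicate C, TMSB4X (-0.36, adjusted p = 0.0372) and MYL6 (0.27, adjusted p = 0.0380, edgeR) did. Of the 78 other pathway genes, 0 passed in UAU (16 at an unadjusted p under 0.05, 5 by DESeq2), 8 were higher and 5 lower in GAUi, and 4 were higher and 4 lower in isoswitch. SRF was higher in GAUi (log2 fold change 0.43, SE 0.091, adjusted p = 0.00527, edgeR), as was the bundling protein gene LCP1 (0.96, SE 0.20). In isoswitch, 0 of 3 genes of SRF and its MRTF cofactors passed (edgeR; 0 at an unadjusted p under 0.05, 0 by DESeq2). A part of SRF in the level of ACTG1 was not tested. The Arp2/3 subunit gene ARPC1B was lower in GAUi (-0.65) and isoswitch (-0.55), the cofilin relative DSTN in GAUi (-0.63), and WASL, an activator of Arp2/3, in isoswitch (-0.68). PLS3 and CNN2, which bind filaments, were higher in isoswitch by 0.37 and 0.36.

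In the low fraction, ACTG1 was again the member that rose. Control had 1226, 1086 and 1102 CPM, UAU 1469, 1492 and 1399 CPM, GAUi 1693, 1587 and 1580.1 CPM and isoswitch 1644, 1726 and 1842 CPM. All libraries of the 3 lines lay above all control libraries. The log2 fold change was 0.48 in GAUi (SE 0.088, adjusted p = 0.00399), 0.59 in isoswitch (SE 0.088, adjusted p = 0.000965) and 0.33 in UAU, which did not pass (SE 0.088, adjusted p = 0.0930, edgeR). TMSB4X had 4546, 5445 and 4879.8 CPM in UAU and 5519, 4583 and 4741 CPM in GAUi, above every control library. Neither passed, with log2 fold changes of 0.75 (SE 0.25, adjusted p = 0.164) and 0.74 (SE 0.25, adjusted p = 0.108). Without control low replicate B the GAUi value was 0.39 and passed (adjusted p = 0.0275, edgeR), and without replicate C it was 1.07 (adjusted p = 0.0292). The UAU value was 0.40 without control low replicate B and did not pass (adjusted p = 0.0533, edgeR).

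MYL6 in the low fraction was lower in UAU, at 683, 689.8 and 691 CPM against 784, 957 and 816 CPM in control, and higher in isoswitch, at 1099, 958 and 1047 CPM. Neither passed, with log2 fold changes of -0.33 (SE 0.092, adjusted p = 0.105) and 0.26 (SE 0.092, adjusted p = 0.166). The UAU and isoswitch libraries lay on opposite sides of all control libraries. Of the 9 counted genes, 0 passed in UAU (edgeR; 3 at an unadjusted p under 0.05, 2 by DESeq2, which called ACTG1 and MYL6), beside 0.329% of all genes called higher and 0.362% lower. In GAUi 1 passed, beside 1.27% higher and 2.13% lower, and in isoswitch 1, beside 0.964% higher and 1.62% lower. Without control low replicate B the counts were 2 in GAUi and 3 in isoswitch, where TMSB10 (-0.44, adjusted p = 0.0406) and MYL6 (0.35, adjusted p = 0.0259, edgeR) joined ACTG1, and without control low replicate C the count in GAUi was 2. Of the 78 other pathway genes 2 were higher and 1 lower in UAU, 1 and 5 in GAUi, and 1 and 2 in isoswitch. ARPC1B was lower in GAUi (-0.84) and isoswitch (-0.98) and higher in UAU (0.46). MSN, the membrane linker moesin, rose in GAUi and isoswitch by 0.41 and 0.42. The filament elongation factor gene VASP rose in UAU by 0.51, where the kinase gene ROCK2 had -0.55. The capping protein gene CAPG had -0.65 in GAUi and the GTPase gene RHOB -0.96 in isoswitch.

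**Figure D3:**
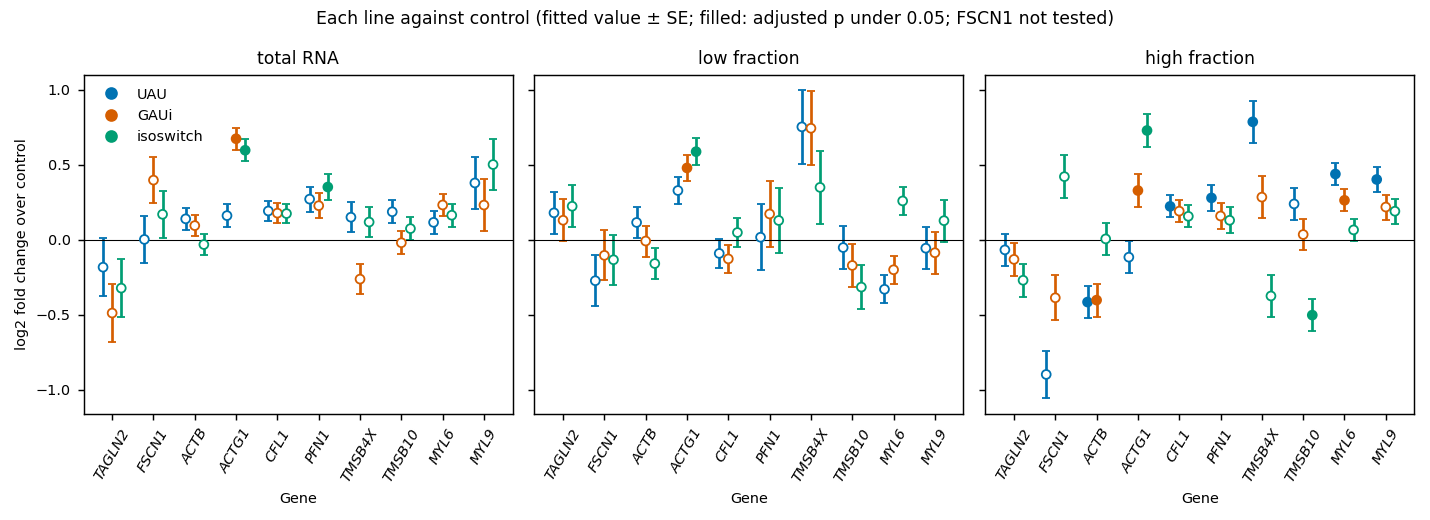
Fitted log2 fold change of each line over control in total RNA, the low fraction and the high fraction, with SE; filled points passed at an adjusted p under 0.05, and FSCN1 was not tested. TAGLN2 in the low and high panels is a description. ACTG1 is filled for GAUi and isoswitch in all 3 panels. All 6 filled points of UAU lie in the high fraction, where more of all genes were called in UAU than in the other panels.

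The high fraction held most of the calls, and all those of UAU. Of all genes in UAU, 13.1% were called higher and 15.5% lower there. In total RNA these shares were 0.348% and 0.566%, and in the low fraction 0.329% and 0.362%. Where the calls lie is therefore not a result about the members. ACTB had 976, 964 and 904 CPM in control, 572, 634 and 897 CPM in UAU, 687, 784 and 676 CPM in GAUi and 1027, 886 and 960.4 CPM in isoswitch. All UAU and GAUi libraries lay below all control libraries, while isoswitch overlapped them. ACTB fell by 0.42 on the log2 scale in UAU (SE 0.11, adjusted p = 0.00552) and by 0.40 in GAUi (SE 0.11, adjusted p = 0.0185), with a fold change of 0.01 in isoswitch (SE 0.11, adjusted p = 0.983, edgeR). The UAU value was uncalled without UAU replicate A (adjusted p = 0.0591), and the GAUi value without control replicate A or B or GAUi replicate A or C (adjusted p from 0.0645 to 0.0891).

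ACTG1 had 2484, 2719 and 2526 CPM in the high fraction of control, 1905, 2119 and 3009 CPM in UAU, 3081, 3533 and 3069 CPM in GAUi and 4423, 4289 and 4178 CPM in isoswitch. The isoswitch libraries stood above all others. The log2 fold change was 0.73 in isoswitch (SE 0.11, adjusted p = 4.88e-05). In GAUi it was 0.33 (SE 0.11, adjusted p = 0.0496, edgeR), a call that was lost when any 1 library of control or GAUi was left out (adjusted p from 0.0680 to 0.208). In UAU it was -0.12 (SE 0.11, adjusted p = 0.456), with replicate C above the control libraries and the other replicates below them, and without replicate C it was -0.34 and passed (adjusted p = 0.00168, edgeR).

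The thymosins parted between the lines. TMSB4X had 502, 455 and 403 CPM in control, 863, 719 and 734 CPM in UAU, 638, 565 and 450.4 CPM in GAUi and 236, 418 and 402 CPM in isoswitch. It rose in UAU by 0.79 (SE 0.14, adjusted p = 0.000195), and the isoswitch value of -0.38 did not pass (SE 0.14, adjusted p = 0.0906, edgeR). TMSB10 had 430.1, 482 and 448 CPM in control and 287, 358 and 320.3 CPM in isoswitch, with no overlap, and fell by 0.50 on the log2 scale (SE 0.11, adjusted p = 0.00207, edgeR). The GAUi value of TMSB10 was 0.03 and the UAU value 0.24, neither of which passed. The latter was 0.35 without UAU replicate C and passed (adjusted p = 0.00619), as it did without the filter on low counts (adjusted p = 0.0282, edgeR).

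Both myosin light chains rose in UAU heavy polysomes. MYL6 had 1802, 1877 and 1999 CPM in control, 2427, 2519.9 and 2644 CPM in UAU, 2236, 2184 and 2382 CPM in GAUi and 1954, 2041 and 1984 CPM in isoswitch. UAU and GAUi lay above all control libraries, and isoswitch overlapped them. The log2 fold change was 0.44 in UAU (SE 0.073, adjusted p = 7.97e-05) and 0.26 in GAUi (SE 0.073, adjusted p = 0.0203), the latter lost without control replicate A or B or GAUi replicate A or C (adjusted p from 0.0659 to 0.112, edgeR). MYL9 rose in UAU from 155, 164 and 186 CPM to 218, 216 and 223 CPM (log2 fold change 0.40, SE 0.084, adjusted p = 0.000755, edgeR). Its value in UAU total RNA was close to this, at 88.1, 91.6 and 85.4 CPM against 65.2 to 71.6 CPM in control. That log2 fold change of 0.38 did not pass (SE 0.17, adjusted p = 0.356, edgeR), but passed when only control and UAU entered the fit (adjusted p = 0.00154, edgeR).

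CFL1 and PFN1 rose in UAU by 0.22 (SE 0.073, adjusted p = 0.0218) and 0.28 (SE 0.086, adjusted p = 0.0159, edgeR). Each call was lost without any of 3 libraries, control replicates A or C or UAU replicate B for CFL1 (adjusted p from 0.0525 to 0.0912) and control replicate C or UAU replicates A or B for PFN1 (adjusted p from 0.0566 to 0.121). In UAU total RNA the values of CFL1 and PFN1 were close to these, at 0.19 and 0.27, without passing (adjusted p = 0.186 and 0.150, edgeR). Both passed there when only control and UAU entered the fit (adjusted p = 0.0264 and 0.00955, edgeR). For TAGLN2 the values of the low and high fractions against control are descriptions, since these control libraries chose it. In the high fraction of UAU it had 2896, 2741 and 4002 CPM. Its log2 fold change of -0.07 there was -0.26 without replicate C and up to 0.033 without another library. In GAUi it was -0.13 and in isoswitch -0.27 (SE 0.11). The isoswitch value was -0.36 without isoswitch replicate B. In the low fraction the values of TAGLN2 were 0.18, 0.13 and 0.22 in UAU, GAUi and isoswitch. FSCN1 had mean levels of 44.9 CPM in control, 23.6 in UAU, 34.5 in GAUi and 60.7 in isoswitch, with SDs of 7.90, 5.996, 0.481 and 14.5 (n = 3). In the order isoswitch, control, GAUi and UAU, the control libraries lay above those of GAUi and the GAUi libraries above those of UAU without overlap. Isoswitch and control were not apart, since isoswitch replicate C and control replicate B both had 51.8 CPM. This order is only a description, as it may be what picked out FSCN1.

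In the high fraction of UAU 6 of 9 counted genes passed, 5 higher and 1 lower, where 13.1% of all genes were called higher and 15.5% lower. Without UAU replicate C all 9 were under the threshold, though for TAGLN2 this is a description. Without control replicate C or UAU replicate A or B 4 passed. The number of all genes called moved between such fits too, so these counts are not a result about the members. In GAUi 2 were higher and 1 lower, beside 4.66% and 5.48% of all genes, and 0 passed without control replicate A or B or GAUi replicate A or C. In isoswitch 1 was higher and 1 lower, beside 3.67% and 7.36%. Without isoswitch replicate B the count was 4, in which TAGLN2 is a description. The other pathway genes gave 17 higher and 24 lower of 78 in UAU, 6 and 11 in GAUi, and 12 and 6 in isoswitch. SRF was higher in UAU (0.69) and GAUi (0.49), as were the Arp2/3 subunit gene ARPC5 in UAU (0.44) and the tropomyosin gene TPM1 in GAUi (0.48). ACTR2, a core subunit of Arp2/3, fell in UAU by 0.70 on the log2 scale and rose in isoswitch by 0.38. LIMK1, the kinase that turns cofilin off, had -0.75 in GAUi and -0.81 in isoswitch. The capping protein gene TMOD3 was lower in UAU (-0.63), WASL in GAUi (-0.71) and the GTPase gene RAC1 in isoswitch (-0.39), and PLS3 was higher in isoswitch (0.42).

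The actin mRNAs were also set against each other within each library, a ratio that does not depend on the scaling between libraries. This ratio was chosen after the values were seen, and as the 2 mRNAs are counted at their own 3′ ends it is compared between lines only. In total RNA the count of ACTG1 over that of ACTB was 4.49 ± 0.216 in control and 4.54 ± 0.278 in UAU (SD, n = 3), against 6.69 in GAUi and 6.94 in isoswitch. In the low fraction the means were 3.95, 4.53, 5.47 and 6.55, and in the high fraction 2.72, 3.34, 4.51 and 4.50. In each fraction the 6 libraries with interference against the GAU tRNA lay above all 6 libraries with interference against eGFP. In total RNA they ran from 6.22 to 7.33 against 4.27 to 4.83, in the low fraction from 5.39 to 7.14 against 3.496 to 4.75, and in the high fraction from 4.31 to 4.84 against 2.55 to 3.36. The mean log2 ratio was higher by 0.59, 0.50 and 0.58 in the 3 fractions. Without that interference, UAU also lay above control in the low fraction, at 4.20 to 4.75 against 3.496 to 4.18. The same held in the high fraction, at 3.33 to 3.36 against 2.55 to 2.82, while UAU and control overlapped in total RNA. As the ratio was chosen on these values, no test is given, and the 6 libraries of each side come from 2 lines.

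**Figure D4:**
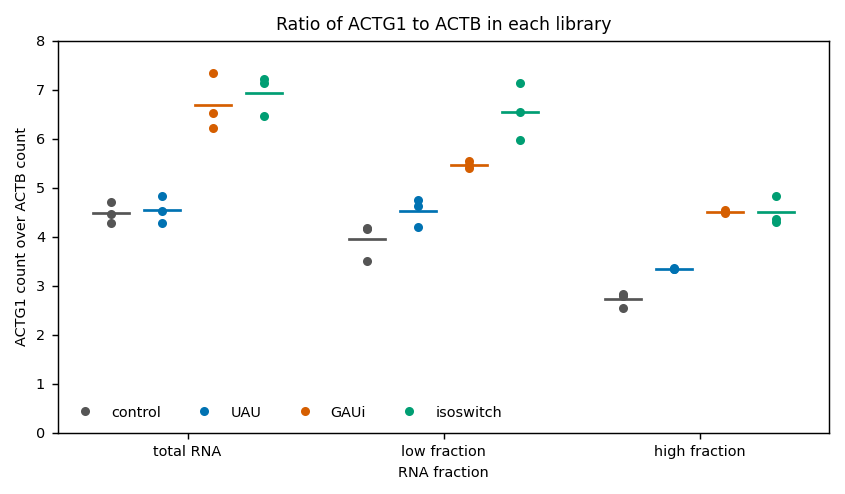
Ratio of the ACTG1 count to the ACTB count in each library, by fraction and line, with bars for the mean of 3 libraries. GAUi and isoswitch lie above control and UAU in every fraction, and UAU lies above control in the low and high fractions. The ratio is lower in the high fraction than in total RNA in all 4 lines.

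Whether the spread over polysomes itself moved was tested as the high-to-low difference in a line minus that in control, over 8 genes, since the control values of TAGLN2 had chosen it. MYL6 passed in UAU, with a change of 0.78 (SE 0.12, adjusted p = 0.000427, edgeR), which held without any 1 library. Its low libraries were below and its high libraries above those of control, as given above. In UAU 1 of 8 passed, beside 3.19% of all genes called higher and 3.34% lower, and DESeq2 called 4. ACTB was close to the threshold at -0.53 (SE 0.17, adjusted p = 0.0513) and passed without UAU high replicate C (-0.74, adjusted p = 0.000988, edgeR) or control low replicate A (-0.67, adjusted p = 0.00931). ACTG1 had -0.44 (SE 0.15, adjusted p = 0.0831) and without UAU high replicate C -0.66 (adjusted p = 0.000905, edgeR). Without that library or control low replicate B the count was 3, the latter with CFL1 (0.37, adjusted p = 0.0494) and PFN1 (0.58, adjusted p = 0.00973, edgeR), and without control low replicate A, UAU low replicate A or C, or control high replicate C it was 2. Without UAU low replicate A the added gene was CFL1 (0.39, adjusted p = 0.0486, edgeR).

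In GAUi 0 of 8 passed (edgeR; 3 at an unadjusted p under 0.05, 2 by DESeq2, which called CFL1 and MYL6), beside 0.196% of all genes called higher and 0% lower. In isoswitch 0 of 8 passed (edgeR; 1 at an unadjusted p under 0.05, 0 by DESeq2), beside 0.00784% higher and 0% lower. The changes of FSCN1 were -0.62 in UAU, -0.28 in GAUi and 0.58 in isoswitch, and those of TAGLN2 -0.24, -0.25 and -0.47, both as descriptions. Of the 78 other pathway genes 3 rose and 13 fell in UAU. ACTR2 and CAP1, a monomer-recycling protein gene, had the smallest p among those that fell, at -0.76 and -0.71. SSH1, a phosphatase that turns cofilin on, and TPM1 rose by 0.60 and 0.45. In isoswitch ARPC1B rose by 0.86, and in GAUi 0 passed (edgeR; 20 at an unadjusted p under 0.05, 6 by DESeq2).

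The effect of UAU overexpression was last compared between cells with interference against the GAU tRNA and cells with interference against eGFP. This test was added after the values were seen, so its p-values describe these libraries and are not independent support. Here a positive value means that overexpression raised an mRNA more, or lowered it less, beside the interference against the GAU tRNA. In the high fraction the actins had positive values, 0.82 for ACTB (SE 0.16, adjusted p = 0.000163) and 0.52 for ACTG1 (SE 0.15, adjusted p = 0.00895, edgeR). ACTB averaged 948 CPM in control and 701 in UAU, but 716 in GAUi and 958 in isoswitch. The thymosins had negative values, -1.45 for TMSB4X (SE 0.20, adjusted p = 4.74e-06) and -0.78 for TMSB10 (SE 0.15, adjusted p = 0.000194, edgeR). TMSB4X averaged 453 CPM in control and 772 in UAU, but 551 in GAUi and 352 in isoswitch.

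The myosin light chains had values of -0.64 for MYL6 (SE 0.10, adjusted p = 2.86e-05) and -0.43 for MYL9 (SE 0.12, adjusted p = 0.00542, edgeR). PFN1 passed at -0.31 (SE 0.12, adjusted p = 0.0498), and lost the call without any 1 of 9 of the 12 libraries (adjusted p from 0.0548 to 0.186, edgeR). CFL1 did not pass, at -0.26 (adjusted p = 0.0517, edgeR), and TAGLN2 had -0.07 as a description. FSCN1 had 1.71 as a description. In the high fraction 2 of 9 counted genes had higher and 5 lower values, beside 18.1% and 17.6% of all genes. Of the 78 other pathway genes 31 were higher and 15 lower, with ACTR2 at 1.17, CAP1 at 1.11, SRF at -1.12 and ARPC5L, an Arp2/3 subunit gene, at -1.01.

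In total RNA the interaction gave 0 of 9 (edgeR; 3 at an unadjusted p under 0.05, 0 by DESeq2), beside 0.0162% of all genes called higher and 0.00809% lower. In the low fraction 1 of 9 passed, and 2 without control low replicate B, beside 0.145% and 0.0884%. This was MYL6 at 0.79 (SE 0.13, adjusted p = 0.0250), a sign opposite to that in the high fraction, and it was lost without UAU replicate B, GAUi replicate A or C, or isoswitch replicate A or C (adjusted p from 0.0851 to 0.161, edgeR) and with the replicate letter as a block (adjusted p = 0.0687). TMSB4X in the low fraction had -1.15 (SE 0.35, adjusted p = 0.168), and -0.79 without control low replicate B (adjusted p = 0.00456, edgeR).

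Over the means of the 12 groups, the genes whose log2 level followed TAGLN2 most closely among 8341 genes were RAB5C, TACO1 and ZBED6 (Pearson r of 0.996, 0.995 and 0.995). For FSCN1 they were CDC73, OLA1 and ADH5 (0.995, 0.993 and 0.993). TAGLN2 and FSCN1 correlated with each other at 0.568. These values describe 12 groups that fall into 3 fractions and share libraries' scaling. Since nothing in the labels states that replicates A, B and C came from separate cultures, the p-values cover the spread between these libraries, which may be technical.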

How the data were processed

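Total RNA and RNA of the low and high fractions of 4 MDA-MB-231 lines were sequenced from 500 ng per library with a QuantSeq 3′ kit, per the labels' protocols. The authors deposited raw counts per gene symbol, 1 file per library. STAR, featureCounts, DESeq2 and hg38 are named per the submitters' processing notes; their versions, the annotation and the strand setting are not given there.

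Groups came from the titles and characteristics. The members and gene lists were chosen with earlier results of these data known. Counts were tested with edgeR 4.0.16 (R 4.3.3; filterByExpr, TMM, glmQLFit, glmQLFTest), with Benjamini-Hochberg adjustment over all genes tested and a threshold of 0.05. SE is the size of the log2 fold change over the square root of F. Lines were compared within 12 libraries of a fraction, fractions within 9 libraries of a line, and the high-to-low change within 24 libraries. The scripts were tested on simulated data. Alternatives were DESeq2 1.42.0, RLE size factors, no filter on low counts, only the groups compared, a replicate block, a 1.5-fold minimum and each library left out. Interactions and the ACTG1 to ACTB ratio were added after the values were seen. All members were described. Per comparison up to 2 called pathway genes in each direction were named by smallest p, and for TAGLN2 and FSCN1 the 3 genes with the highest Pearson correlation of mean log2 (CPM + 1) over 12 groups, among genes with a mean of at least 10 CPM. Promoter windows and gene positions are RefSeq's, GRCh38.p14. Library totals lay between 6679340 and 8973050 (total RNA), 5310594 and 8234332 (low) and 5192464 and 8974001 counts (high). Protein features were not analysed here.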

Additional observations from a re-analysis of the deposited data

Results flagged for a closer look

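Several members differed between contrasts by a test of the difference itself (log2 values, edgeR). The high-to-low difference of MYL6 was larger in UAU than in control by 0.78 (adjusted p = 0.000427). The effect of UAU overexpression in cells with interference against the GAU tRNA minus that in eGFP cells, in the high fraction, was 0.82 for ACTB, 0.52 for ACTG1, -0.31 for PFN1, -1.45 for TMSB4X, -0.78 for TMSB10, -0.64 for MYL6 and -0.43 for MYL9. In the low fraction it was 0.79 for MYL6, which did not pass with the replicate letter as a block (adjusted p = 0.0687, edgeR) or without any 1 of 5 libraries. The value of PFN1 did not pass without any 1 of 9 of the 12 libraries.

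Among the other pathway genes named by rule, the high-to-low change in UAU against control was 0.60 for SSH1, 0.45 for TPM1, -0.76 for ACTR2 and -0.71 for CAP1, and in isoswitch it was 0.86 for ARPC1B. The same interaction in the high fraction was 1.17 for ACTR2, 1.11 for CAP1, -1.12 for SRF and -1.01 for ARPC5L. Of all genes, 18.1% were called higher and 17.6% lower in this interaction. Beyond the chi-square between replicates given above, groups of 3 libraries were not tested for a single library far from the rest.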

How the results depend on the processing

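All 9 counted members passed in the high-over-low contrast of UAU, GAUi and isoswitch under every alternative run. ACTG1 passed in total RNA and the low fraction of GAUi, and in all 3 fractions of isoswitch, under every alternative except the 1.5-fold minimum in GAUi low. The number of members called moved elsewhere, as did the number of all genes called, so the counts here are not a result about the members. Without the filter on low counts it was 1 in UAU total RNA, 4 in GAUi total RNA, 4 in isoswitch total RNA, 2 in UAU low, 2 in GAUi low, 3 in isoswitch low, 4 in isoswitch high, 3 for the high-to-low change in UAU, 1 for that in isoswitch and 2 for the interaction in the low fraction. DESeq2 called 2 in GAUi total RNA, 2 in UAU low, 4 and 2 for the high-to-low change in UAU and GAUi. With only the groups compared it was 4 in UAU total RNA and 6 in isoswitch total RNA. A 1.5-fold minimum left 1 in isoswitch total RNA, 0 in GAUi low, 1 in UAU high, 0 in GAUi high, 1 in isoswitch high and 4 for the interaction in the high fraction. The cause of these moves was not tested.

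Leaving out a library gave 1 to 4 in GAUi total RNA, 1 to 2 in isoswitch total RNA, 1 to 2 in GAUi low, 1 to 3 in isoswitch low, 0 to 3 in GAUi high, 2 to 4 in isoswitch high, 1 to 3 for the high-to-low change in UAU and 0 to 2 for the interaction in the low fraction. It also turned signs, of which these are examples, since not every member was followed in every leave-out. ACTB ran from -0.076 to 0.0021 in isoswitch total RNA, -0.085 to 0.15 in GAUi low, -0.23 to 0.0013 in isoswitch low and -0.046 to 0.055 in isoswitch high. TAGLN2 ran from -0.26 to 0.033 in UAU high, -0.24 to 0.066 in the low and -0.17 to 0.12 in the high interaction. Without control low replicate B, PFN1 turned from 0.017, 0.17 and 0.13 to -0.30, -0.14 and -0.19 in UAU, GAUi and isoswitch low. MYL9 in GAUi total RNA turned from 0.23 to -0.062 without GAUi replicate A.

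Among comparisons of lines or fractions, none had same-letter correlations over 0.1 in all 3 pairs, so the letters were not taken as pairs. In the high fraction of UAU against control (0.081 to 0.14) and of GAUi against control (0.093 to 0.34) all were positive and every library correlated best with its own letter, a hint from the data and not from the design. With the replicate letter as a block, 2 members passed for the high-to-low change in UAU and 0 for the interaction in the low fraction, and ACTG1 in GAUi high had an adjusted p of 0.0501 (edgeR). The paired check changed the side of no other reported member.

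Over all genes tested, the number called ranged over the alternatives from 25 to 916 in UAU total RNA (113 as reported), 329 to 2134 in GAUi (1248) and 194 to 1898 in isoswitch (500). In the low fraction it ranged from 0 to 339 in UAU (86), 177 to 760 in GAUi (423) and 105 to 675 in isoswitch (321). In the high fraction it ranged from 877 to 3809 (3432), 330 to 1691 (1215) and 401 to 1516 (1322). For the high-to-low change it ranged from 226 to 1189 (833), 0 to 274 (25) and 0 to 469 (1), and for the interaction from 2 to 95 in total RNA (3), 0 to 251 in the low (29) and 2786 to 4695 in the high fraction (4276).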
